A study of Mus musculus with 14 samples.

Results

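The mitochondrial respiratory chain and ATP synthase are built from subunits whose genes lie mostly in the nucleus, and 80 of these nuclear genes were followed here in mouse liver. Members were defined by symbol, with earlier results of these data known. The rule took genes with a single annotated symbol beginning Ndufa, Ndufb, Ndufc, Ndufs, Ndufv, Uqcr, Cox4i, Cox5, Cox6, Cox7, Cox8 or Atp5, together with Sdha to Sdhd and Cyc1, without the Ndufaf assembly factors and without pseudogenes. They were 80 of the 22180 genes measured, and where a gene had several probe sets the one with the highest mean over all arrays stood for it. By complex there were 34 genes of complex I, 4 of complex II, 8 of complex III, 17 of complex IV and 17 of complex V (ATP synthase).

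Affymetrix arrays labelled by the WT Plus protocol, 14 in all, gave the levels of these genes in the livers of male mice of the C57Bl/6J strain. All were 6 weeks old when they started a 60% high-fat diet (HFD), ate it freely for 4 weeks and then entered 1 of 3 arms for another 4 weeks. The arms were continued HFD (HFD control, n = 4), HFD with canagliflozin at 30 mg/kg by the sample labels and 25 to 30 mg/kg by the protocol (n = 5), and HFD with 15 to 30% caloric restriction, set so that body weight matched the canagliflozin arm (n = 5). Canagliflozin blocks the sodium-glucose cotransporter SGLT2 in the kidney, so that glucose is lost in urine. All groups share the diet, and no lean group was analysed here, so no value below describes the effect of the diet itself.

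Complex I (NADH dehydrogenase) and complex II (succinate dehydrogenase) pass electrons to ubiquinone, complex III hands them to cytochrome c, and complex IV (cytochrome c oxidase) reduces oxygen. Complexes I, III and IV pump protons, and ATP synthase uses the gradient to make ATP. Hepatocytes are rich in mitochondria and use this chain to oxidise fatty acids and to supply ATP for glucose and urea synthesis. The transcription factors NRF1 and GABPA bind upstream of many subunit genes, and the coactivator PGC-1alpha, encoded by Ppargc1a, raises their transcription.

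Values are log2 signals made by RMA, which equalises the distributions of the arrays, so a difference of 1 is a 2-fold difference and a change shared by all genes would not be seen. The medians of the 14 arrays over all probe sets lay between 4.07 and 4.13, and any pair of arrays correlated at 0.971 to 0.985 over probe sets. The tissue label was checked on hepatocyte markers: 8 of the 9 listed were measured, with means of 9.60 to 14.01, and their summed linear level was 60047 to 62412 in HFD control, 58627 to 62391 with canagliflozin and 60317 to 62625 with caloric restriction. Markers of endothelial cells, stellate cells, cholangiocytes, lymphocytes and adipocytes had list medians between -0.068 and 0.092 log2 in the 3 comparisons. Of the 80 subunit genes, 68 had a mean of at least 5, compared with 41.9% of all genes. The 12 dimmer ones were Ndufa4l2, Ndufb11, Ndufs5, Atp5j2 and 8 genes of complex IV, among them isoforms known from muscle, lung or testis. A brighter probe set at 7.61 names Ndufs5 beside Ndufs5-ps and was left out by the single-symbol rule. In bulk liver, fewer cells of a type and less RNA per cell cannot be told apart. The labels count mice per arm but do not state array by array that each came from a separate mouse. Each array is called a mouse here, and p-values set differences of means against the spread within groups of arrays.

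Canagliflozin with HFD against HFD control asks what the drug does to these transcripts on an unchanged diet. None of the 80 subunit genes passed an adjusted p of 0.05 in limma, where 0% of all 22180 genes passed. At an unadjusted p under 0.05 there were 2 subunit genes, both of complex I and both with the higher mean after canagliflozin, beside 6.51% of all genes (3.21% higher and 3.3% lower). No subunit gene had groups that did not overlap, a pattern shown by 1.95% of all genes. The mean was higher with canagliflozin for 56 of the 80 genes (49.7% of all genes), and the median difference was 0.042 log2 against -0.00085 over all genes. By complex, the mean was higher for 27 of 34 genes in complex I (median 0.064), 4 of 4 in complex II (0.057), 3 of 8 in complex III (-0.011), 9 of 17 in complex IV (0.054) and 13 of 17 in ATP synthase (0.039). Single mice moved these medians by over 1.5 times: complex I ran from 0.027 without HFD control replicate 3 to 0.116 without HFD control replicate 1, and complex III turned to 0.014 without HFD control replicate 2.

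The 95% intervals bound these differences of RMA signal, not of transcript amount. For 76 of the 80 genes the canagliflozin interval lay wholly inside a 1.5-fold change in either direction, a share near the 92% of all genes. For 45 it lay inside 1.25-fold (40.1% of all genes). Among the 68 subunit genes with a mean of at least 5, it lay inside 1.5-fold for 66 and inside 1.25-fold for 44. Only 41.9% of all genes reach that mean, and no share was taken over them. The counts were thus not set beside genes of like signal. The lowest bound among the 80 intervals was -0.50, for Cox6a2, and the highest was 0.81, for Sdhc. Atp5b and Atp5a1, the catalytic beta and the alpha subunit of ATP synthase, had intervals of -0.14 to 0.20 and -0.17 to 0.18 log2.

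**Figure D1:**
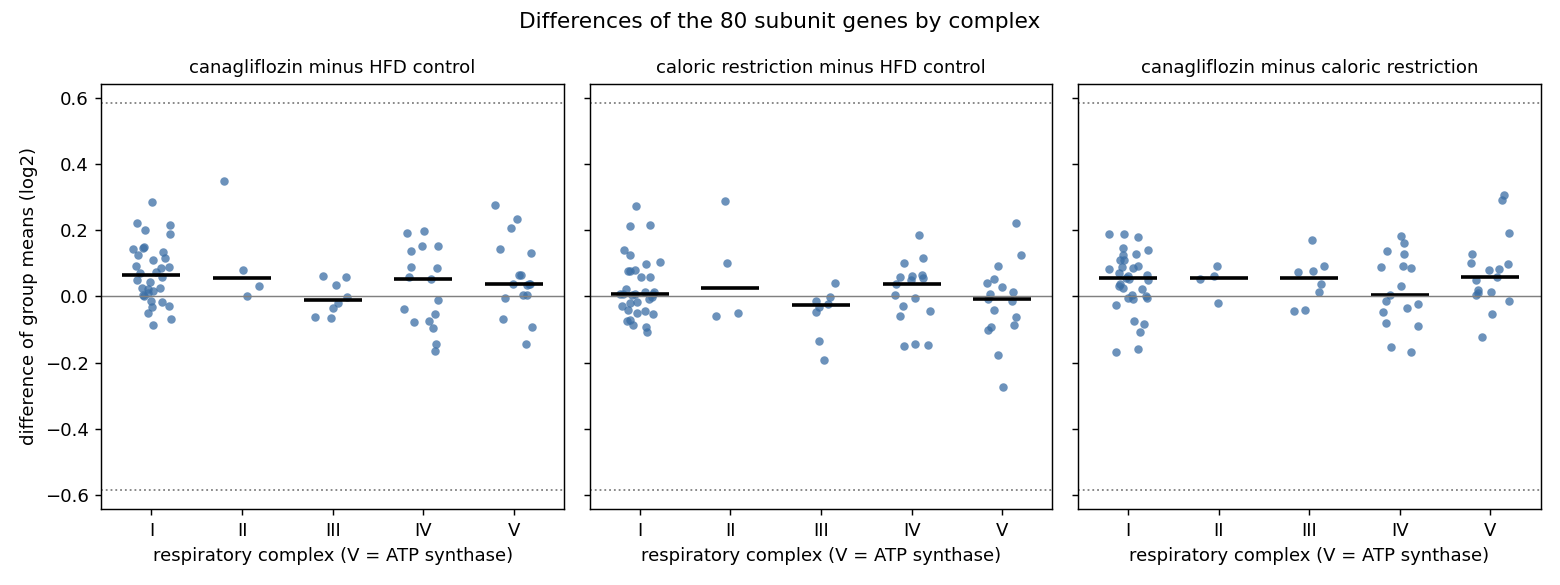
Each point is 1 of the 80 subunit genes, placed by its complex; the vertical axis is the difference of group means in log2, with a panel for each of the 3 comparisons. Black bars are complex medians and dotted lines mark a 1.5-fold difference; no point lies beyond them, and the largest difference is 0.35 for Sdhc.

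In complex I the gene with the smallest p was Ndufs7, a core subunit that carries the iron-sulfur cluster next to the ubiquinone site. Its log2 values were 9.50, 9.26, 9.56 and 9.68 in HFD control and 9.79, 9.65, 9.55, 9.78 and 9.80 with canagliflozin. With canagliflozin 3 of 5 mice lay above every control, and the groups overlapped. The means were 9.50 ± 0.17 (SD, n = 4) and 9.72 ± 0.11 (SD, n = 5), a difference of 0.22 ± 0.10 (SE), or 1.16-fold, with an adjusted p = 0.758 in limma. Control replicate 2 was the lowest, and the difference without it was 0.14.

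Ndufa1 encodes a small membrane-arm subunit needed for complex I assembly. It read 8.22, 8.26, 7.65 and 7.95 in HFD control, against 8.36, 8.50, 8.04, 8.12 and 8.50 with canagliflozin. Again 3 of 5 treated mice lay above all controls, and the control spread was wide because replicates 3 and 4 were low. The difference was 0.29 ± 0.14 (limma, adjusted p = 0.766). It was 0.16 when control replicate 3 was left out.

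Ndufc2, an accessory subunit of the membrane arm, read 9.10, 9.33, 9.09 and 8.96 in HFD control and 9.34, 9.51, 9.23, 9.12 and 9.35 with canagliflozin. The canagliflozin mean was higher by 0.19 ± 0.10 (limma, adjusted p = 0.794), with control replicate 2 level with the middle of the treated mice.

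Succinate dehydrogenase, complex II, gave the largest single difference and the widest interval. Sdhc, which encodes the large cytochrome b membrane anchor, read 8.34, 8.53, 8.42 and 9.38 in HFD control and 8.53, 9.20, 8.63, 9.32 and 9.40 with canagliflozin. Low values near 8.5 and high values above 9 occurred in both groups. The difference was 0.35 ± 0.22 (limma, adjusted p = 0.83). Replicate 4 was the only high control, and the difference without it was 0.59. Sdha, the flavoprotein subunit, differed by 0.00 with an interval of -0.19 to 0.20.

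In complex III the smallest p belonged to Cyc1, which encodes cytochrome c1. Its means were 8.25 ± 0.10 in HFD control and 8.18 ± 0.11 with canagliflozin, a difference of -0.065 ± 0.10 (limma, adjusted p = 0.955). In complex IV it was Cox7b2, a testis isoform whose signal here was dim, at 2.11 ± 0.15 and 2.26 ± 0.07 (limma, adjusted p = 0.809).

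ATP synthase was led by Atp5k, which encodes the small membrane subunit e that helps pair the enzyme into dimers. The HFD controls read 8.58, 8.59, 8.37 and 8.50, and the canagliflozin mice 8.91, 8.98, 8.78, 8.56 and 8.48. Replicates 1 to 3 of the treated arm lay above every control and replicates 4 and 5 did not. The difference was 0.23 ± 0.11 (limma, adjusted p = 0.774). At the other end lay Cox6a2, the heart and muscle form of Cox6a, at -0.17 ± 0.16, and Atp5g1, 1 of 3 genes for the membrane-ring subunit c, at -0.14 ± 0.14; neither passed the test.

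Caloric restriction against HFD control asks the same of eating less, at a body weight matched to the drug arm. None of the 80 genes passed the adjusted threshold (0% of all genes), and 3 had an unadjusted limma p under 0.05 (3.93% of all genes, 2.06% higher and 1.87% lower), all with the higher mean after restriction: Ndufa8, Ndufs7 and Cox7b2. No subunit gene had separate groups (1.4% of all genes). The mean was higher after restriction for 41 of the 80 (50.5% of all genes), with a median of 0.0041. By complex, 20 of 34 were higher in complex I, 2 of 4 in complex II, 1 of 8 in complex III, 10 of 17 in complex IV and 8 of 17 in ATP synthase. Leaving out 1 mouse could turn the sign of the median of complexes I, III, IV and V. The interval lay inside 1.5-fold for 78 genes (93.9% of all genes), and inside 1.25-fold for 45 (42.6%).

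Ndufa8, an accessory subunit of complex I held together by disulfide bonds, gave the smallest p. Its values were 9.51, 9.32, 9.46 and 9.98 in HFD control and 9.74, 10.04, 9.78, 9.83 and 9.81 with restriction. Apart from control replicate 4, which exceeded 4 of the 5 restricted mice, the groups were apart. The difference was 0.27 ± 0.12 (limma, adjusted p = 0.999), and without that control it was 0.41. The canagliflozin mice read 9.78, 9.90, 9.55, 9.84 and 9.77, a difference from the same controls of 0.20 ± 0.12. A second probe set for Ndufa8 gave 0.27 or 0.28 for restriction and 0.20 or 0.25 for canagliflozin, depending on which of the pair was read.

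Ndufs7 after restriction read 9.67, 9.66, 9.69, 9.87 and 9.67. It was higher than in the controls by 0.21 ± 0.10 (limma, adjusted p = 0.999), with 2 of 5 mice above every control. Without control replicate 2 it was 0.13. The canagliflozin and restriction means differed by 0.00 for this gene (95% interval -0.19 to 0.20). Both differences for Ndufs7 rest on the same 4 controls, so they are not separate observations.

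In complex III the restricted mice were lower for 7 of 8 genes, with Uqcrb lowest. Uqcrb encodes a small subunit near the ubiquinone-binding region. Its values were 11.28, 11.41, 11.28 and 11.32 in HFD control and 11.29, 11.07, 11.00, 11.05 and 11.25 with restriction. Here 4 of 5 restricted mice lay below every control, and replicate 1 lay among them. The difference was -0.19 ± 0.09 (limma, adjusted p = 0.999). The canagliflozin mice read 11.26, 11.42, 11.28, 11.13 and 11.42, with a mean of 11.30 ± 0.12 beside 11.32 ± 0.06 in the controls.

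Atp5g1 had the most negative value after restriction. It read 5.50, 5.76, 5.26 and 5.52 in HFD control and 4.88, 5.55, 5.43, 5.30 and 5.03 with restriction, a difference of -0.27 ± 0.14 (limma, adjusted p = 0.999). Restricted replicates 1 and 5 were below every control and the other 3 were not. Cox7b2 was at 2.29 ± 0.06 after restriction, higher by 0.19 ± 0.09 (limma, adjusted p = 0.999), at a level below the median of every array. Sdhc again had the highest difference, 0.29 ± 0.22, with restricted mice at 8.48, 9.21, 9.12, 8.92 and 9.04. It was 0.52 without control replicate 4 and 0.18 without control replicate 1.

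**Figure D2:**
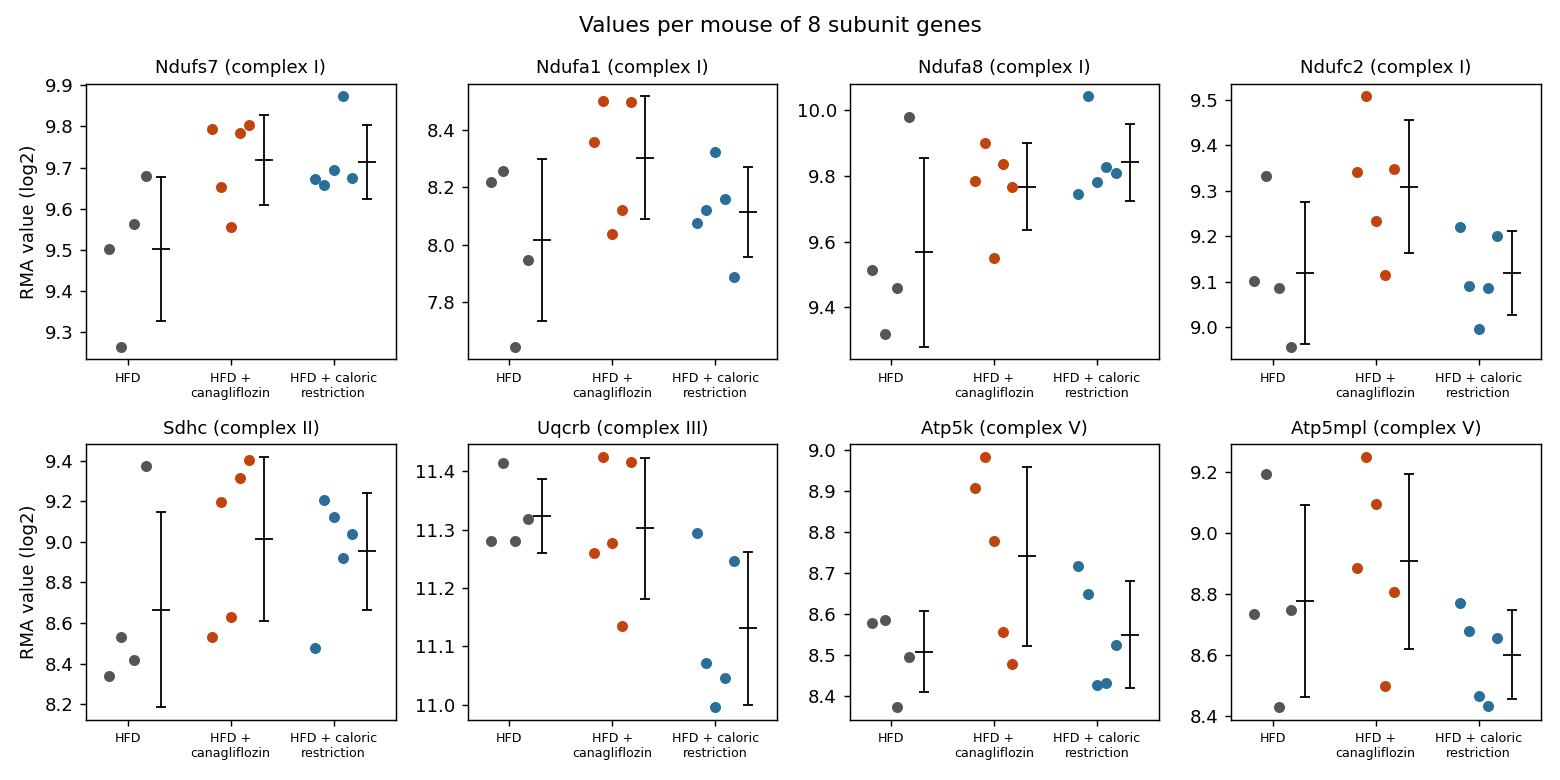
Points are single mice and black bars the group mean ± SD, in log2 RMA units, for 8 subunit genes of complexes I, II, III and V; axes are scaled per gene. The groups overlap for all 8 genes, with HFD control replicate 4 the high control for Ndufa8 and Sdhc.

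Canagliflozin against caloric restriction compares arms of matched body weight. None of the 80 genes passed the adjusted threshold, beside 1 gene in all (0.00451%). At an unadjusted limma p under 0.05 there was 1 subunit gene, Atp5mpl, higher with canagliflozin (6.05% of all genes, 3.07% higher and 2.98% lower), and no subunit gene had separate groups (0.929%). The canagliflozin mean was the higher for 57 of 80 genes (49% of all genes), with a median of 0.053 against -0.0032 over all genes. That held for 25 of 34 genes in complex I (median 0.054), 3 of 4 in complex II (0.057), 6 of 8 in complex III (0.056), 9 of 17 in complex IV (0.0055) and 14 of 17 in ATP synthase (0.059). The low complex IV median includes its dim genes: over the 9 complex IV genes with a mean of at least 5 it was 0.089. The complex IV median turned to -0.015 without restricted replicate 2 and was 0.082 without restricted replicate 1, and that of complex III turned to -0.015 without canagliflozin replicate 2. The interval lay inside 1.5-fold for 78 genes (93.9%) and inside 1.25-fold for 49 (47.4%). The highest bound was 0.64, for Atp5l. Macrophage markers also had higher means with canagliflozin in this comparison, for 9 of 9 genes with a median of 0.22. None of these markers had an unadjusted limma p under 0.05, and their median SE was 0.20. Their summed linear level was 1085 to 1512 with canagliflozin and 748 to 1415 with restriction, and their part in the subunit values was not tested. Against HFD control, whose macrophage sum was 840 to 1602, the marker median was 0.12 with canagliflozin and -0.13 with restriction.

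Small membrane subunits of ATP synthase had the 2 highest differences here. Atp5mpl, the proteolipid at the dimer interface, read 8.88, 9.25, 9.10, 8.50 and 8.81 with canagliflozin and 8.77, 8.68, 8.46, 8.43 and 8.66 with restriction. With canagliflozin 4 of 5 mice lay above every restricted mouse, and replicate 4 was among the low ones. The difference was 0.31 ± 0.14 (limma, adjusted p = 0.821). HFD control read 8.73, 9.20, 8.43 and 8.75, which spans most of both arms.

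Atp5l, subunit g, read 9.54, 9.61, 9.40, 8.95 and 9.59 with canagliflozin and 9.25, 9.26, 9.26, 8.66 and 9.19 with restriction. Replicate 4 was the lowest of each arm. The difference was 0.29 ± 0.16 (limma, adjusted p = 0.832), and without restricted replicate 4 it was 0.18. Atp5k differed by 0.19 ± 0.11 (limma, adjusted p = 0.828), with restricted mice at 8.72, 8.65, 8.43, 8.43 and 8.52.

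In the other complexes Ndufc2 differed by 0.19 ± 0.09 (limma, adjusted p = 0.828), with 4 of 5 canagliflozin mice above every restricted mouse. Uqcrb was 0.17 ± 0.09 higher with canagliflozin (limma, adjusted p = 0.828). Cox6b1, which joins the cytochrome oxidase monomers on the intermembrane side, read 8.78 ± 0.30 with canagliflozin and 8.60 ± 0.07 with restriction, a difference of 0.18 ± 0.13 that was 0.061 without canagliflozin replicate 2. Sdhb, the iron-sulfur subunit of complex II, differed by 0.093 ± 0.085. The most negative values were those of 2 dim genes, Ndufa4l2 at -0.17 ± 0.11 and Cox6b2 at -0.17 ± 0.14.

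The catalytic or core subunits had no gene past the adjusted threshold. Of the 17 core genes listed for description 16 were measured, and the canagliflozin mean exceeded the control mean for 13, from -0.065 for Cyc1 to 0.35 for Sdhc. After restriction 8 of 16 were higher than control, from -0.085 for Ndufs1, the largest core subunit of the NADH-oxidising arm, to 0.29 for Sdhc. Between the treated arms the values ran from -0.11 for Ndufs8 to 0.15 for Ndufv2, both carriers of iron-sulfur clusters.

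Several subunits exist as a liver form and a form of another tissue, and neither kind had a gene past the adjusted threshold. Cox4i1, the general isoform, read 9.14 ± 0.27, 9.34 ± 0.18 and 9.18 ± 0.13 in HFD control, canagliflozin and restriction, and Cox4i2, known from lung and low oxygen, read 4.04 ± 0.12, 3.95 ± 0.11 and 4.10 ± 0.33. Cox6a1, the liver form, read 12.61 ± 0.11, 12.66 ± 0.13 and 12.71 ± 0.09 in that order, while Cox6a2, the muscle form, read 4.58 ± 0.18, 4.41 ± 0.27 and 4.44 ± 0.30. Different probe sets have different affinities, so levels of 2 genes were not compared.

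The remaining sets did not pass the test either. Cox7a2, the liver form, read 8.88 ± 0.23, 9.07 ± 0.24 and 8.94 ± 0.09, and Cox7a1, the muscle form, 4.55 ± 0.23, 4.64 ± 0.08 and 4.61 ± 0.26. Cox7a2l, a relative that joins complexes III and IV into supercomplexes, read 7.48 ± 0.16, 7.56 ± 0.19 and 7.47 ± 0.05. Cox8a read 10.21 ± 0.11, 10.14 ± 0.17 and 10.22 ± 0.16, and the muscle and testis forms Cox8b and Cox8c had means of 2.82 to 3.09. Striated muscle markers had means of 2.87 to 5.42, with summed linear levels of 110 to 131 in HFD control, 118 to 120 with canagliflozin and 122 to 134 with restriction.

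The 3 genes for subunit c encode the same mature protein behind different import signals. Atp5g2 read 10.67 ± 0.18, 10.58 ± 0.14 and 10.57 ± 0.20, and Atp5g3 read 8.73 ± 0.25, 8.87 ± 0.20 and 8.85 ± 0.10. Ndufa4 is counted here with complex I by its symbol, although its protein is now regarded as a subunit of complex IV. It read 10.76 ± 0.12, 10.78 ± 0.09 and 10.78 ± 0.07, and its canagliflozin difference had an interval of -0.16 to 0.20. Over the 17 isoform genes the difference was above 0 for 8 with canagliflozin against control, 11 with restriction against control and 9 between the treated arms.

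Across single mice the subunit genes varied together. Each gene's value minus its mean over the 14 arrays was taken, and the median over the 80 genes gave 1 number per mouse. It was 0.054, 0.063, -0.100 and -0.054 in HFD control, 0.072, 0.145, 0.018, -0.085 and -0.014 with canagliflozin and 0.073, -0.068, -0.049, -0.028 and -0.023 with restriction. Each group held mice above and below 0, and the groups overlapped. The group means were -0.0093 ± 0.081 (SD, n = 4), 0.027 ± 0.087 (n = 5) and -0.019 ± 0.055 (n = 5), so the group means lay closer together than the mice of a group. The same median over all genes stayed between -0.0077 and 0.0031 in every array. The number of subunit genes above their own mean ran from 15 of 80 in HFD control replicate 3 to 63 of 80 in restricted replicate 1.

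The high mice were those listed first in the deposited table. Its first 5 arrays, which come from all 3 groups, all had a median above 0, and 1 of the other 9 did. Positions were 1, 4, 7, 9 and 12 for canagliflozin, 2, 5, 10 and 13 for HFD control, and 3, 6, 8, 11 and 14 for restriction. Canagliflozin arrays thus tended to lie earlier and restricted arrays later, so position and arm were not balanced. Pearson's r between position and median was -0.684 and Spearman's rho -0.635 over the 14 arrays, and r was -0.694 over the 12 left without the first and last. These are descriptions, and no label says what the order stands for. The same median over the 71 mitoribosomal genes followed position too, with r -0.776, rho -0.793 and the first 5 arrays above 0, so the pattern is not particular to the subunit genes. The slope against position was below 0 for 64 of the 80 genes (52% of all genes), and 16 fell with position at an unadjusted limma p under 0.05 (4.8% of all genes), while 1, Sdhc, had a rising slope (4.72%). None passed the adjusted threshold, which 0.167% of all genes passed. With position as a covariate, an alternative chosen after seeing these values, the median differences were 0.029 for canagliflozin against control, 0.013 for restriction against control and 0.026 between the treated arms.

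**Figure D3:**
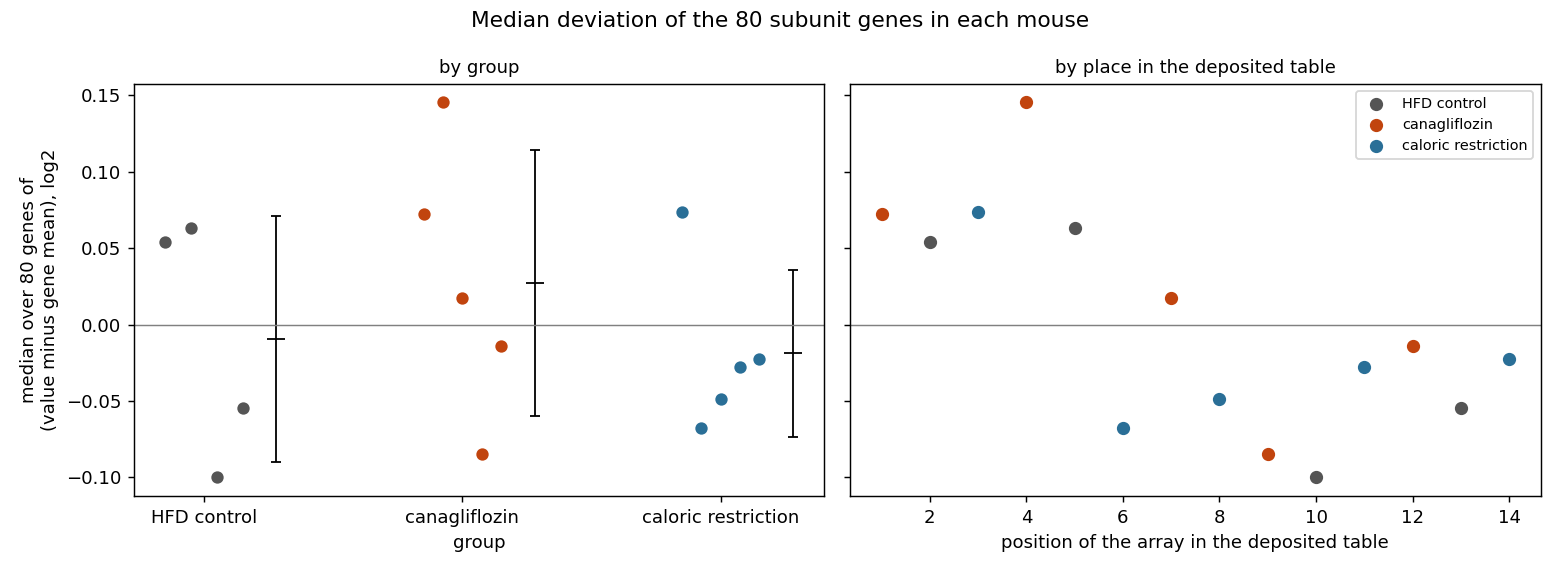
Each point is 1 mouse, and the vertical axis is the median over the 80 subunit genes of the value minus the gene's mean, in log2; the left panel groups mice by arm with mean ± SD, and the right panel places them by position in the deposited table. The arms overlap, and the first 5 positions all lie above 0.

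Deviations from group means were then correlated between pairs of genes over the 14 arrays, which share tissue, array type and scaling. The trend with deposited position was left in these deviations. Among the 68 subunit genes with a mean of at least 5 the median pairwise r was 0.338, and 78.4% of pairs were above 0, whereas the 9300 genes of all kinds at that level gave 0.013 and 51.5%. It was 0.361 within complex I, 0.424 within complex III, 0.371 within complex IV and 0.380 within ATP synthase, but 0.111 among the 4 genes of complex II. The mitochondrial ribosomal proteins, 66 genes at that level, gave 0.169.

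Most members followed the common pattern and a few did not. Against the median of the other members, 62 of 68 genes had r above 0 and 44 had r above 0.5. The closest were Uqcrh, the hinge protein of complex III, at 0.885, Cox5a at 0.851, Ndufb10 at 0.839 and Cox7a2l at 0.836. The most opposed were Ndufv3 at -0.565, Ndufs7 at -0.444, Sdhc at -0.406 and Ndufa8 at -0.187. Those 3 named before, Ndufs7, Sdhc and Ndufa8, are among the genes with the largest differences from control, whereas Atp5k, at 0.796, followed the other members. Slopes per deposited position were -0.038, -0.031, -0.024 and -0.018 log2 for Uqcrh, Cox5a, Ndufb10 and Cox7a2l. For Ndufv3, Ndufs7, Sdhc and Ndufa8 they were 0.014, 0.012, 0.058 and 0.011. The common pattern was thus not separated from the trend with position.

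Sequence upstream of the start sites is shown for 3 genes at different ends of this pattern: Atp5k and Uqcrh, which followed the common pattern, and Ndufa8, which did not. Each is the 120 bases before the RefSeq gene start on GRCm38.p6, read on the gene's own strand, at chr5:108434400-108434519 for Atp5k (which overlaps the noncoding gene Gm34319), chr4:116075071-116075190 for Uqcrh and chr2:36049339-36049458 for Ndufa8, all on the minus strand. Capitals mark overlapping matches to the NRF1 motif on both strands in Atp5k, a match to the GABPA motif on the opposite strand in Uqcrh, and in Ndufa8 a match to the NRF1 motif with a free base followed by a match to the full NRF1 motif on the opposite strand.
Atp5k: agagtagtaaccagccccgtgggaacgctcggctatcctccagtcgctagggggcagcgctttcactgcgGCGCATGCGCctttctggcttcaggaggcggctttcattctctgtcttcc
Uqcrh: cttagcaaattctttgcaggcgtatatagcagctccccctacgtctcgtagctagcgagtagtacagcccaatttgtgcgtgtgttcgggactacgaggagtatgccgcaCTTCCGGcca
Ndufa8: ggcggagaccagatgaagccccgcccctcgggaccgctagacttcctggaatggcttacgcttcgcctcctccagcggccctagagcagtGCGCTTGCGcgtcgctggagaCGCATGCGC
The matches begin 50 bases before the start in Atp5k, 10 in Uqcrh, and 30 and 9 in Ndufa8. Any relation between these letters and the common pattern was not tested.

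Over windows from 250 bases before to 50 after the start, 65 of the 80 genes were matched in RefSeq with 70 windows, set beside 32851 windows of all genes; motifs were sought on both strands and were chosen after the values were seen. The NRF1 motif GCGCATGCG was in 8 of 70 windows (11.4%) against 1.75% of all, and GCGCNTGCG, of which it is a case, in 22 (31.4%) against 6.31%. The GABPA motif CCGGAAG was in 17 windows (24.3%) against 8.86%, and the YY1 motif AAGATGGC in 9 (12.9%) against 2.75%. The oestrogen-related receptor motif AAGGTCA was in 6 (8.57%) against 4.72%, and TATAAA in 9 (12.9%) against 13.6%. A match is a description of letters and not evidence of binding.

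Genes that build or serve the chain were read from 5 other lists, none of which had a gene past the adjusted limma threshold. The mitochondrial genome encodes the remaining subunits, and the 10 of its genes measured had median differences of 0.0081 for canagliflozin against control, -0.030 for restriction against control and 0.052 between the treated arms, with none at an unadjusted p under 0.05. Assembly factors, 46 genes, had medians of 0.022, 0.00 and 0.050, in the same order. Electron carriers and ubiquinone synthesis genes, 16 in all, had 0.079, -0.013 and 0.084. The mitochondrial ribosome, 71 genes, had 0.054, -0.020 and 0.054.

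At an unadjusted limma p under 0.05, 2 of 46 assembly factors, 2 of 16 carriers and 2 of 71 mitoribosomal genes were higher with canagliflozin than in control and none lower, beside 3.21% of all genes higher and 3.3% lower. The smallest p among them was that of Coq4, which is needed for ubiquinone synthesis, at 0.33 ± 0.11 (limma, adjusted p = 0.601), with 4 of 5 treated mice above every control. Ndufaf6, a complex I assembly factor, was at 0.27 ± 0.11 (limma, adjusted p = 0.731). Between the treated arms 6 of 71 mitoribosomal genes were higher with canagliflozin and none lower, 2 of 16 carriers were higher and none lower, and 1 of 46 assembly factors was higher and 1 lower, beside 3.07% of all genes higher and 2.98% lower. The highest was Mrpl28 at 0.36 ± 0.13 (limma, adjusted p = 0.747). Coq2, which attaches the side chain of ubiquinone, was at -0.32 ± 0.11 for restriction against control (limma, adjusted p = 0.999). In that comparison 1 assembly factor and 1 carrier were higher at an unadjusted p under 0.05, and 1 assembly factor, 1 carrier, 1 mitoribosomal gene and 1 regulator were lower, beside 2.06% of all genes higher and 1.87% lower.

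The 20 regulators had medians of -0.0026, -0.057 and -0.0043. Among them Ppargc1a, the coactivator gene, had the largest difference between canagliflozin and HFD control. It read 6.08, 6.60, 6.51 and 6.53 in HFD control, 7.13, 7.52, 6.66, 8.52 and 8.01 with canagliflozin and 6.56, 6.74, 6.08, 7.26 and 6.89 with restriction. All 5 canagliflozin mice lay above every control, and restricted mice lay on both sides. Canagliflozin and control groups did not overlap for 1.95% of all genes. The canagliflozin difference was 1.14 ± 0.29 (limma, adjusted p = 0.559), and that of restriction 0.28 ± 0.29. In the same order of replicates, the subunit medians of the canagliflozin mice were 0.072, 0.145, 0.018, -0.085 and -0.014. Those arrays stood at positions 1, 4, 7, 9 and 12 of the deposited table. A relation between Ppargc1a and the subunit genes was not tested.

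The other regulators lay on both sides of 0. Of all 20, 10 had a higher and 10 a lower mean with canagliflozin than in control, and 8 a higher and 12 a lower mean with restriction. Esrrg, an oestrogen-related receptor, had the highest value after restriction at 0.36 ± 0.18 (limma, adjusted p = 0.999). Nrf1, which encodes the factor of the motif above, read 6.28 ± 0.05 in HFD control, 6.04 ± 0.15 with canagliflozin and 6.11 ± 0.03 with restriction, differences of -0.23 ± 0.09 (limma, adjusted p = 0.677) and -0.17 ± 0.09 (adjusted p = 0.999). All 5 restricted mice lay below every control for Nrf1, as did 4 of 5 canagliflozin mice. Restriction and control groups did not overlap for 1.4% of all genes. Polg, the mitochondrial DNA polymerase, read 6.58 ± 0.05 in HFD control and 6.13 ± 0.12 with restriction, with all 5 restricted mice below every control and a difference of -0.45 ± 0.13 (limma, adjusted p = 0.999). With canagliflozin the Polg difference from the same controls was -0.27, the lowest of the 20 regulators. Differences of both arms share these controls, so they are not separate observations. Neither Nrf1 nor Polg passed the test across all genes.

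**Figure D4:**
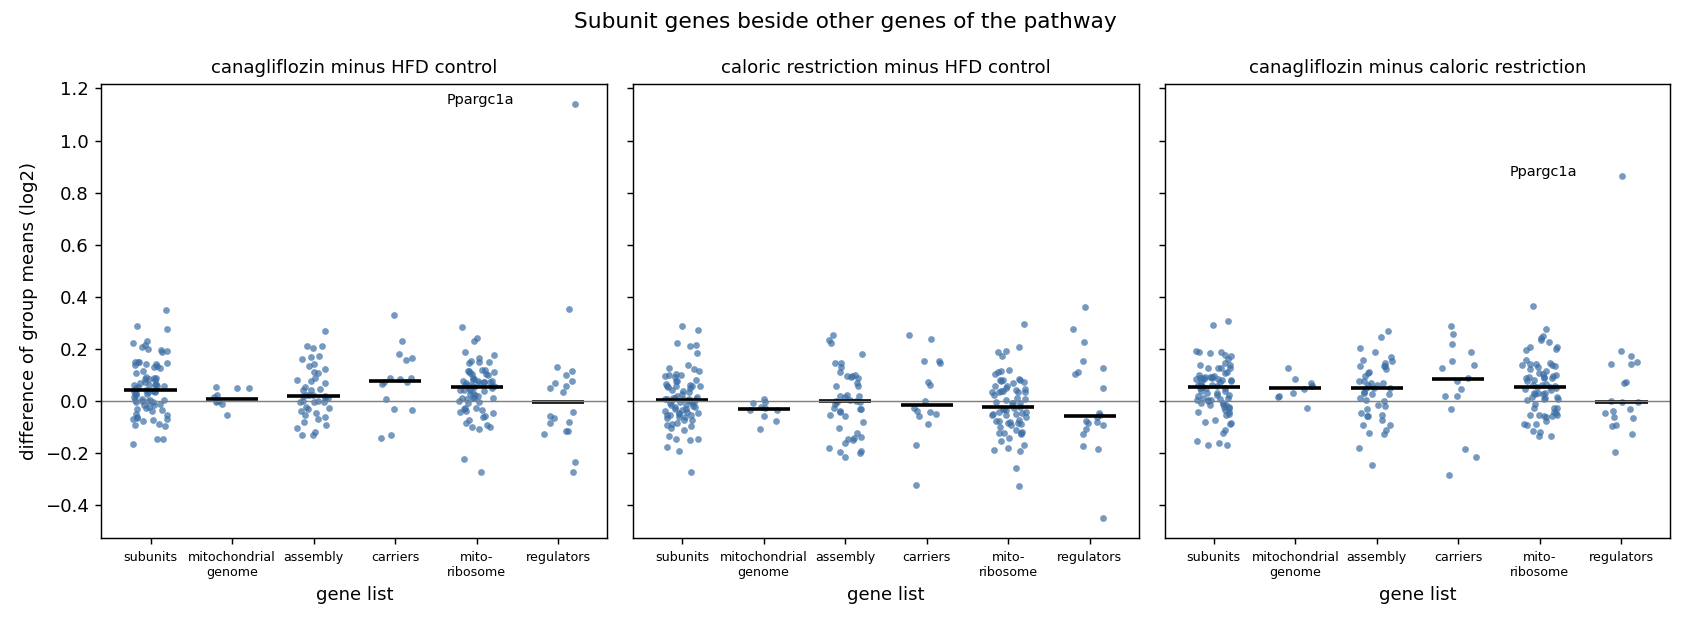
Points are genes and black bars list medians, with the difference of group means in log2 on the vertical axis, for the 80 subunit genes and 5 other lists in each of the 3 comparisons. Ppargc1a stands above the other points at 1.14 with canagliflozin against HFD control and 0.86 against restriction, while the list medians lie between -0.057 and 0.084.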

How the data were processed

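The deposited log2 values of 14 liver arrays, 1 per probe set, were computed by the authors with Expression Console (RMA), per the submitters' processing notes; its version was not given in the sources used here. For labelling, 250 ng of RNA was used, per the labels' protocols. The platform annotation pairs 23521 of 41345 probe sets with a single symbol and 1814 with several, and lists no entry for 16010. Only the first kind was used, which leaves out 10 probe sets that name a subunit beside another gene. For each gene the probe set of highest mean was kept, a choice between 2 for 9 subunit genes.

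limma 3.58.1 (R 4.3.3; lmFit, eBayes) fitted the 3 group means to all 22180 genes, with Benjamini-Hochberg adjustment over all of them in each comparison and a threshold of 0.05. Dim values were not filtered. Differences carry standard errors and 95% intervals from the fit, and groups carry standard deviations. The fit was tested on simulated data. Medians over genes are descriptions without a test. Precision is limited by the number of arrays, which have no depth.

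Genes named were, per comparison, the 4 with the smallest p, the smallest p in each complex, the 2 highest and 2 lowest differences, the isoform sets and the extremes of the core subunits, and from each other list at most the 2 smallest p, and Ppargc1a. Named outside this rule, after their values were seen, were genes given for their correlation with other members or for dim signal or disagreeing probe sets, and Atp5a1, Atp5b, Sdha and Esrrg. Lists were assembly factors, carriers, the mitochondrial genome, regulators, the mitoribosome and markers of 8 cell types. The members and lists were chosen with earlier results of these data known. Promoter windows are from RefSeq (GRCm38.p6). Alternatives were other scalings, a filter, other variance models, array weights, a replicate block, the mean of probe sets, leaving out each array, and deposited position.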

Additional observations from a re-analysis of the deposited data

Results flagged for a closer look

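In 8 of 126 groups of values checked, over 41 genes, 1 mouse stood apart from the others of its group by Dixon's criterion, and chance gives about 1 in 20. In HFD control, Ndufs8 was highest in replicate 1 at 8.96 (nearest 8.88), Uqcrfs1 was highest in replicate 1 at 7.05 (nearest 6.86), and the dim Cox6b2 was lowest in replicate 3 at 3.40 (nearest 3.95). With canagliflozin, the dim Cox8b was highest in replicate 3 at 3.31 (nearest 2.80). With caloric restriction, Atp5l was lowest in replicate 4 at 8.66 (nearest 9.19), Ndufs7 highest in replicate 4 at 9.87 (nearest 9.69), Ndufa8 highest in replicate 2 at 10.04 (nearest 9.83) and Ndufa4 highest in replicate 1 at 10.89 (nearest 10.76). The deviations were below 0.6 log2 and came from 6 different mice.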

How the results depend on the processing

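No subunit gene passed the adjusted limma threshold under any setting run. The median over the 80 genes for canagliflozin against HFD control ran from 0.010 (without HFD control replicate 3) to 0.068 (without canagliflozin replicate 4), and between the treated arms from 0.024 (without canagliflozin replicate 2) to 0.077 (without canagliflozin replicate 4). For restriction against HFD control it ran from -0.028 (without restricted replicate 1) to 0.032 (without HFD control replicate 2), so its sign depends on single mice, and it was -0.0052 over genes with a mean of at least 5. With the replicate number as a block the medians were 0.046, 0.0029 and 0.053 for canagliflozin against control, restriction against control and canagliflozin against restriction. Deviations of same-numbered arrays correlated at -0.089 to 0.198, with 3 of 13 pairs over 0.1, so the numbers were not taken to pair mice. Median centring gave 0.062, 0.012 and 0.065, and cyclic loess 0.054, 0.0077 and 0.056. Second probe sets disagreed in sign for some genes. Cox5b had -0.14 for canagliflozin against control and 0.20 on its second probe set, which was dimmer (mean 4.29 against 9.88). Ndufa11 had 0.058 and -0.33 for restriction against control, the second again dimmer (5.14 against 8.77). For Atp5d the second probe set was nearly as bright (8.04 against 8.30), with the same signs but larger values. Restriction against control gave 0.054 and 0.32 for Atp5d, and the treated arms differed by -0.12 and -0.40. Leaving out 1 array moved the median of every complex by over 1.5 times in at least 1 direction. For canagliflozin against control the ranges were 0.027 to 0.116 in complex I, 0.017 to 0.084 in II, -0.038 to 0.014 in III, 0.0073 to 0.071 in IV and 0.0098 to 0.075 in V. For restriction against control they were -0.026 to 0.038, 0.011 to 0.046, -0.080 to 0.014, -0.023 to 0.040 and -0.071 to 0.017, and between the treated arms 0.020 to 0.096, 0.013 to 0.099, -0.015 to 0.083, -0.015 to 0.082 and 0.030 to 0.078. In complex IV that last median was -0.031 with deposited position as a covariate and 0.089 over genes with a mean of at least 5. For canagliflozin against control, leaving out 1 array also moved Cox6a2 (-0.24 to -0.080), Atp5g1 (-0.23 to -0.061) and Cyc1 (-0.093 to -0.018) by over 1.5 times, and between the treated arms Sdhb (0.046 to 0.129), Ndufa4l2 (-0.23 to -0.10) and Cox6b2 (-0.24 to -0.086). The median half-width of the 95% interval was 0.23 log2 in both comparisons with control.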
